A study of Mus musculus with 9 samples.

Results

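Adipocyte marker genes were followed in the hearts of mice after pressure overload, as a readout of fat tissue lying on or in the heart. The set was chosen by name and comprised 10 genes of the 55401 rows of the count table: Adipoq, Lep, Retn and Cfd, which encode secreted products of fat cells; Plin1, Plin4, Cidec and Cidea, which encode lipid droplet proteins; Car3, a cytosolic carbonic anhydrase; and Ucp1, the uncoupling protein of brown fat. All 10 were in the table. Counts above 0 were found for 8 of them, and 7 had enough counts to be tested. As a label for fat tissue the set went largely against the data. Lep and Ucp1 had no count in any of the 9 libraries. Adipoq, Plin1 and Retn, which are closely tied to adipocytes, were at trace level, and Plin4 and Cidea carried nearly all of the RNA of the set. The genes are therefore described as 10 named markers and not as a measure of cardiac fat.

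The libraries came from hearts of male mice operated on at 8 to 12 weeks of age, with 3 libraries in each of 3 groups. The KO-TAC hearts carried c-Myc flox/flox and Tcf21 iCre, a tamoxifen-inducible Cre driven from the Tcf21 locus, which is active in fibroblasts. These mice received tamoxifen at 45 mg/kg on 5 days and transverse aortic constriction (TAC), an operation that narrows the aorta and loads the left ventricle with pressure, and are labelled 12 weeks. The TAC hearts were WT, had the same operation and are labelled 12 weeks. The control hearts were WT and are taken as the sham-operated mice of the study's design. The sources used here do not give whether WT mice received tamoxifen. No Cre-carrying mice without the floxed allele and no KO mice without TAC were analysed here, so effects of Cre or tamoxifen cannot be told apart from those of the Myc deletion. Separate mice are not stated for the hearts of a group, so p-values reflect only how these 9 samples spread, which may be technical in part.

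Adipocytes store triglyceride in 1 large droplet that is sealed by perilipin 1 and enlarged by the droplet fusion protein CIDEC. They secrete adiponectin, leptin, in mice also resistin and the complement protease adipsin. Brown adipocytes burn fatty acids through UCP1, and in mice their droplets carry CIDEA. Fat on the mouse heart lies mainly at the atrioventricular groove and around the base of the heart, so how much of it enters an RNA sample depends also on dissection. Heart muscle itself stores little fat, in small droplets that are coated by perilipins other than perilipin 1, with perilipin 4 and 5 abundant in muscle.

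Values are CPM, the counts of a gene divided by the total of its library and scaled to a common total with TMM factors, which correct for the composition of the libraries. Total counts were 59702513 to 109162107 per library, so that 3 counts corresponded to 0.0221 to 0.0468 CPM. Low counts were coarse: within a library 4 occurred 1.37 to 2 times as often as 3, and 2.39 to 2.80 times as often as 5, so 1 count need not be 1 independent read. Myc, the deleted gene, had 1.87 to 4.75 CPM in KO-TAC hearts and 6.22 to 14.2 CPM in TAC hearts, against 1.55 to 2.47 CPM in control hearts. Every KO-TAC library lay below every TAC library for Myc, in the direction of the labels. Of all tested genes, 9.96% had CPM ranges that did not overlap between these groups. Tcf21, the driver gene, had 3.89 to 4.13 CPM in KO-TAC hearts, 5.98 to 6.89 CPM in TAC hearts and 4.90 to 6.44 CPM in control hearts. TAC replicate 3 stood apart: 10 cardiomyocyte genes summed to 13459 CPM in it, against 80528 to 82155 CPM in the control libraries, and their median log2 CPM minus the control mean was -2.87. TAC replicate 2 stood apart from the other TAC libraries in another way: its medians lay at -0.12 for fibroblast, 0.00 for endothelial and 0.24 for cardiomyocyte genes, near the control hearts, whereas TAC replicates 1 and 3 lay at 0.99 and 1.13 for fibroblast and 0.83 and 1.01 for endothelial genes. Some marker differences and list medians are given also without TAC replicate 2 or 3, but not every value that these libraries moved.

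Promoter windows show where the genes of the set begin, and are given for the most abundant member and for the adipocyte genes Adipoq and Plin1. Each window runs from 250 bases before to 50 bases after the annotated start, from RefSeq on build GRCm38.p6, and is written 5′ to 3′ on the strand of the gene. Plin4 lies at chr17:56109733-56110032 on the minus strand, Adipoq at chr16:23146286-23146585 on the plus strand and Plin1 at chr7:79732727-79733026 on the minus strand. Capitals mark matches on either strand to TTNNGNAA, the letters searched for C/EBP factors, which drive genes of fat cell differentiation.
Plin4: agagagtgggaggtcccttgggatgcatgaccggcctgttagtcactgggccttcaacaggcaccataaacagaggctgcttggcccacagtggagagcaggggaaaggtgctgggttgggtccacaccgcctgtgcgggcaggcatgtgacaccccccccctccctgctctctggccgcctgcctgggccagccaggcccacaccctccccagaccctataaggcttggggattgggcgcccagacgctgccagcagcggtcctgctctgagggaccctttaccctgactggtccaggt
Adipoq: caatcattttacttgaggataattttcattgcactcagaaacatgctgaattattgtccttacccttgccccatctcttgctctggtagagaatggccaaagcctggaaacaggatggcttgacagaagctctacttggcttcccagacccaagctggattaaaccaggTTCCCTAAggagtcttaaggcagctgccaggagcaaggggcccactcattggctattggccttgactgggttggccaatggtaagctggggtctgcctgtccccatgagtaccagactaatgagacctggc
Plin1: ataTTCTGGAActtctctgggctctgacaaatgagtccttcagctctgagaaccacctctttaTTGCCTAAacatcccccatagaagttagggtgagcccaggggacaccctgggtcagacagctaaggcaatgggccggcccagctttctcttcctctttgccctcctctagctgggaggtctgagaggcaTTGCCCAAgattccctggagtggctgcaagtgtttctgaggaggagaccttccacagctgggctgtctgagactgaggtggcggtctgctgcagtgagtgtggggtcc
The Plin4 window held no match, while the Adipoq and Plin1 windows did. Windows were matched for 8 members (9 windows, 2 of them of Cidec), without Car3 and Cidea. Matches to TTNNGNAA were in windows of 4 of the 8 members (Adipoq, Cidec, Lep and Plin1), against 40.7% of all 32851 windows of the same length. AGGTCA, the core letters of many nuclear receptor sites, was found in the window of 1 member, Ucp1, against 16.3% of all windows. A pair of AGGTCA in the same direction with 1 base between them, the arrangement bound by PPARs with RXR, was in no window of a member and in 0.0396% of all windows, and TATAAA was in none of the members' windows and in 13.6% of all. A match is a description of these letters and shows no binding.

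In the annotation of build GRCm38 (GENCODE M21), all 10 genes were protein coding. Plin4 spans chr17:56100591-56109803 on the minus strand, 1797 bases from Plin5, its neighbour in the perilipin family. Adipoq spans chr16:23146536-23158028 on the plus strand, Plin1 chr7:79720218-79732903 on the minus strand, Cidec chr6:113424634-113435760 on the minus strand and Cfd chr10:79890853-79892655 on the plus strand. Car3 spans chr3:14863512-14872523, Lep chr6:29060220-29073877, Retn chr8:3655770-3660110 and Ucp1 chr8:83290352-83298452, all on the plus strand. Cidea lies on chromosome 18. The gene models of Plin4 and Cidea overlap neighbours on the opposite strand, Plin4 by 17 bases with Hdgfl2 and Cidea by 500 bases with B430212C06Rik. Whether the authors counted reads by strand was not given in the sources used here, so reads in the 500 shared bases of Cidea may belong to either gene.

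The members fell into an abundant pair and a group at or near 0. Per kilobase of exon, over all 9 libraries, Plin4 averaged 38.4 CPM and Cidea 15.7 CPM. The next members were Cfd at 0.662 and Car3 at 0.318 CPM per kilobase, followed by Cidec at 0.129, Adipoq at 0.080, Retn at 0.027 and Plin1 at 0.025 CPM per kilobase. Lep and Ucp1 were at 0. Among the 19051 genes tested, the mean CPM of Plin4 stood at percentile 97.9 and that of Cidea at 67.3, while Car3 stood at 27.0, Cfd at 22.8, Cidec at 12.4, Plin1 at 3.99 and Adipoq at 3.39. The order of neighbours was clear only between the abundant pair and the rest: in every library Plin4 exceeded Cidea and Cidea exceeded every other member per kilobase, whereas the ranges of Cfd (0.050 to 1.64 CPM per kilobase), Car3 (0.063 to 0.835) and Cidec (0 to 0.408) overlapped.

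Other genes of the same families give the levels a scale. The mean of Plin4 per kilobase was close to that of Plin5 (31.8 CPM per kilobase), the perilipin that tethers droplets to mitochondria, and of Plin3 (30.5), and above that of Plin2 (11.5), whereas Plin1 averaged 0.025. In the CIDE family, Cidea averaged 15.7, Cideb 0.523 and Cidec 0.129 CPM per kilobase. Fabp4 (134 CPM per kilobase), a fatty acid carrier of adipocytes that capillary endothelium also makes, and Lpl (425), the lipase that heart muscle supplies to capillaries, were far above all 10 members.

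**Figure D1:**
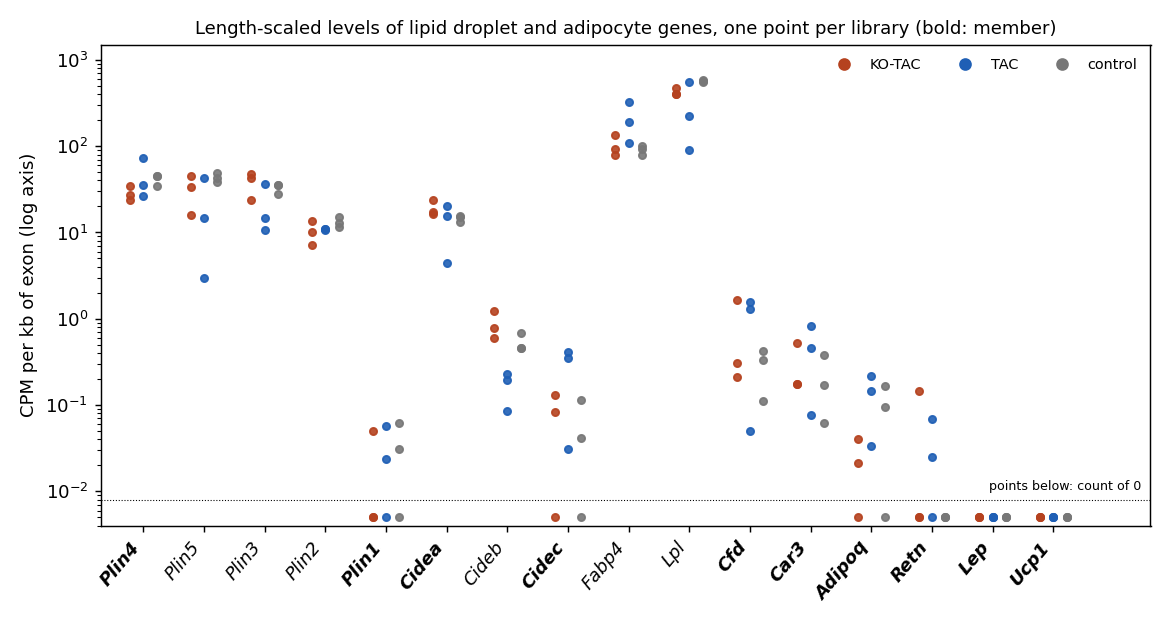
Levels of the 10 adipocyte markers (bold) and of related genes in CPM per kilobase of exon on a log axis, 1 point per library, for KO-TAC, TAC and control hearts; libraries with a count of 0 are drawn under the dotted line. Plin4 and Cidea sit with Plin5, Plin3 and Plin2, while Adipoq, Plin1 and Retn lie near the line and Lep and Ucp1 are at 0 in all 9 libraries.

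Among the secreted products, Adipoq, which encodes the hormone adiponectin, had 0.029, 0.056 and 0 CPM in the 3 KO-TAC hearts, 0.199, 0.296 and 0.046 CPM in the TAC hearts, and 0, 0.230 and 0.132 CPM in the control hearts, each in the order of replicates 1, 2 and 3. These CPM stood for 4, 4 and 0 counts in KO-TAC, 15, 19 and 4 in TAC, and 0, 15 and 11 in control. TAC replicates 1 and 2 and control replicates 2 and 3 held the higher values, the KO-TAC hearts lay at or below 4 counts, and the groups overlapped, since control replicate 1 had no count. In a bulk heart sample, fewer cells of a type and less RNA per cell cannot be told apart.

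Cfd encodes adipsin, the protease that starts the alternative complement pathway. It had 1.52, 0.281 and 0.193 CPM in KO-TAC hearts, 1.45, 1.20 and 0.046 CPM in TAC hearts, and 0.103, 0.307 and 0.395 CPM in control hearts. KO-TAC replicate 1 and TAC replicates 1 and 2 were the 3 high libraries and TAC replicate 3 was the lowest of all 9, so both operated groups overlapped the control hearts. Retn, which encodes resistin, was counted in KO-TAC replicate 1 (0.228 CPM, 31 counts) and in TAC replicates 1 and 2 (0.040 and 0.109 CPM, 3 and 7 counts). It was at 0 in the other KO-TAC and TAC hearts and in all 3 control hearts. These were the same 3 libraries in which Cfd was high. Retn did not pass the filter on low counts and has no test. Lep, which encodes leptin, was at 0 in all 9 libraries, which allows up to 0.0221 to 0.0468 CPM per library by counting error alone.

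Of the droplet proteins, Plin1, the coat protein that guards the droplet of fat cells against lipolysis, had 0.236, 0 and 0 CPM in KO-TAC hearts, 0.266, 0.109 and 0 CPM in TAC hearts, and 0, 0.291 and 0.144 CPM in control hearts. At least 1 library of each group was at 0, and the counts in the other libraries were 7 to 32. Cidec, which joins droplets into larger ones, had 0.243, 0 and 0.154 CPM in KO-TAC hearts, 0.758, 0.655 and 0.058 CPM in TAC hearts, and 0, 0.077 and 0.215 CPM in control hearts. TAC replicates 1 and 2 stood above all other libraries and TAC replicate 3 lay within the range of the control and KO-TAC hearts.

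Plin4, a coat protein of nascent droplets that is made in white fat, heart and skeletal muscle, was measured with 9875 to 27179 counts per library. It had 158.8, 138.8 and 198.2 CPM in KO-TAC hearts, 202.4, 423.9 and 152.3 CPM in TAC hearts, and 199.5, 262.5 and 262.5 CPM in control hearts. Means ± SD were 165 ± 30.2 CPM in KO-TAC, 259.6 ± 144.6 CPM in TAC and 241 ± 36.4 CPM in control (n = 3 each). The 3 KO-TAC hearts were all below the 3 control hearts, though the nearest libraries, at 198.2 and 199.5 CPM, were almost level. Ranges of these groups did not overlap for 26.5% of all tested genes. The TAC hearts held both the highest library of all, replicate 2, and one of the lowest, replicate 3.

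Cidea, in mice a droplet protein of brown fat, had 422 to 2499 counts per library. It had 18.4, 26.5 and 19.4 CPM in KO-TAC hearts, 17.1, 22.7 and 4.88 CPM in TAC hearts, and 14.6, 16.9 and 17.2 CPM in control hearts. Means ± SD were 21.4 ± 4.39 CPM in KO-TAC, 14.9 ± 9.11 CPM in TAC and 16.2 ± 1.43 CPM in control (n = 3 each). The 3 KO-TAC hearts were all above the 3 control hearts, in a comparison where 26.5% of all tested genes had ranges that did not overlap. TAC replicate 3 was far below every other library. Ucp1, the gene that defines thermogenic fat, was at 0 in all 9, so Cidea was present without it.

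Car3, one of the most abundant transcripts of mouse white fat and also made in slow skeletal muscle, had 1.50, 0.506 and 0.502 CPM in KO-TAC hearts, 2.39, 1.31 and 0.220 CPM in TAC hearts, and 0.491, 1.10 and 0.179 CPM in control hearts. KO-TAC replicate 1 and TAC replicate 1 were the highest, and all 3 groups overlapped. The sum of 8 genes of fast skeletal muscle was 1.35 to 2.69 CPM in KO-TAC and 1.98 to 3.90 CPM in TAC. It was 2.39 to 2.57 CPM in control. Genes of fast muscle cannot show whether slow skeletal muscle was present. The part of skeletal muscle in the Car3 values was not tested.

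**Figure D2:**
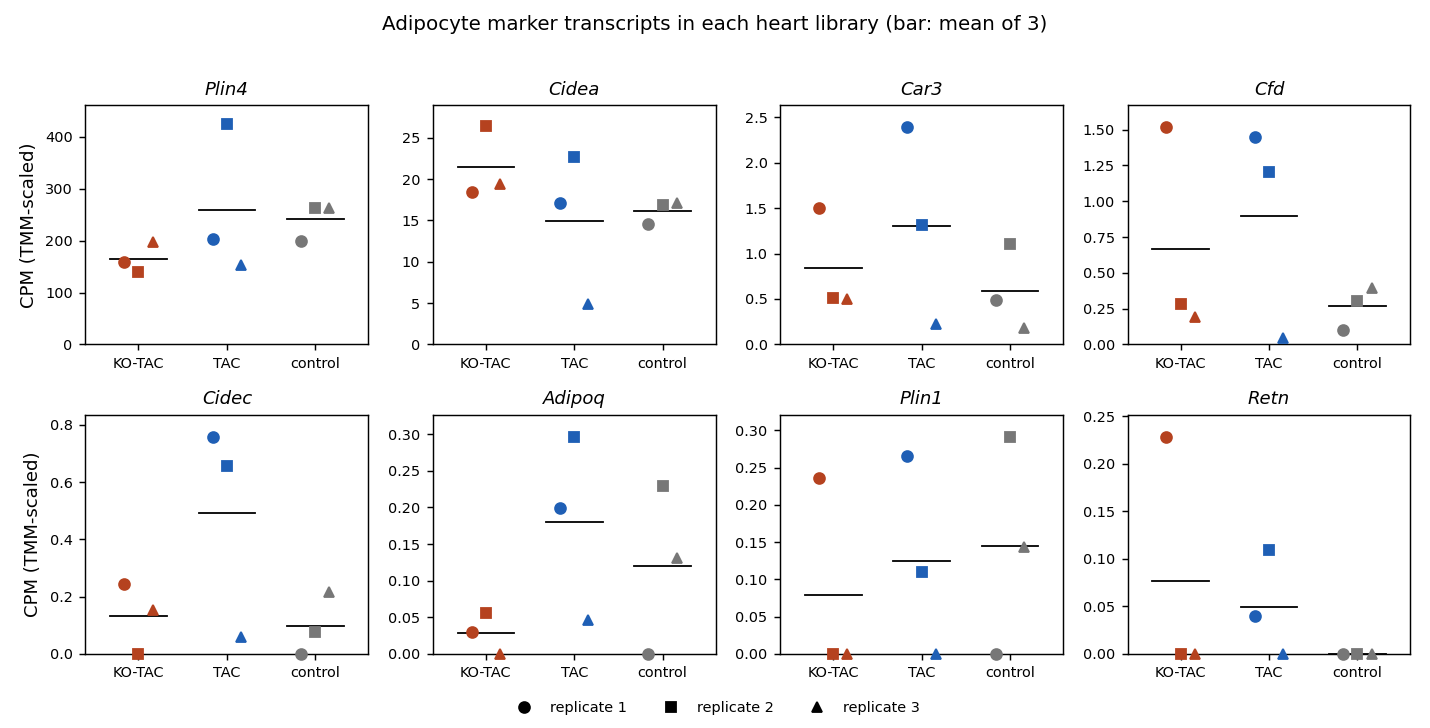
CPM of the 8 markers with any count, 1 panel per gene, in KO-TAC, TAC and control hearts; each point is a library, its shape gives the replicate number and the bar is the mean of 3. Panels have their own linear axes starting at 0. TAC replicates 1 and 2 and KO-TAC replicate 1 carry the high values of Cfd, Cidec, Car3 and Retn. The KO-TAC and control ranges do not overlap for Plin4 (lower) and Cidea (higher), as for 26.5% of all tested genes.

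KO-TAC was set against TAC to ask what deletion of Myc in Tcf21-lineage cells changed under pressure overload. No marker passed the test (edgeR's quasi-likelihood test on all 9 libraries, Benjamini-Hochberg adjusted p under 0.05 over 19051 genes), and none had an unadjusted p under 0.05. Over all genes the same test called 0% in KO-TAC against TAC, with 1420 genes at an unadjusted p under 0.05 and a lowest adjusted p of 0.128, so the absence of calls among markers is the same as the background. Of the 7 tested, 6 had lower and 1 higher fitted values in KO-TAC hearts, with a median log2 difference of -0.63, beside 0.01 over all genes.

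KO-TAC hearts had 1.57-fold less Plin4 than TAC hearts (log2 difference -0.65, SE 0.38, 95% interval -1.50 to 0.19, adjusted p = 0.70). Without TAC replicate 2, its highest library, the log2 difference was -0.10, so the size of the Plin4 value rested on that library. Cidea was 1.44-fold higher in KO-TAC (log2 difference 0.52, SE 0.44, 95% interval -0.47 to 1.51, adjusted p = 0.76), and without TAC replicate 3 its difference was 0.11. The droplet pair therefore took opposite signs, and each value leaned on 1 TAC library.

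For the trace markers the fitted differences were larger and their errors larger still. Adipoq had a log2 difference of -2.60 (SE 1.45, adjusted p = 0.69) and Cidec of -1.84 (SE 1.42, adjusted p = 0.74) in KO-TAC against TAC. Car3 (-0.63, SE 0.88), Plin1 (-0.57, SE 1.83) and Cfd (-0.42, SE 1.09) had adjusted p of 0.82, 0.93 and 0.91. Without TAC replicate 1 the signs of Plin1, Cfd and Car3 turned, to 0.63, 0.11 and 0.15, and Cfd was at 0.01 without KO-TAC replicate 3. The CPM ranges of the 3 KO-TAC and 3 TAC hearts overlapped for all 7 tested markers, while 9.96% of all tested genes had ranges that did not overlap. By DESeq2, 1.03% of genes were called and no marker, and by limma-voom with sample quality weights (a linear model on log2 CPM that trusts irregular libraries less) 5.23% of genes and no marker.

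TAC was set against control to ask what pressure overload changed in WT hearts. Again no marker passed edgeR's test, as for 0% of all genes, with 4054 genes and no marker at an unadjusted p under 0.05. That background rested on TAC replicate 2: without it 5477 genes (27.5%) passed, and still none of the 7 markers. Fitted values were higher in TAC for 5 of the 7 tested markers and lower for 2, with a median log2 difference of 0.58 beside 0.03 over all genes. The higher ones were led by Cidec (log2 difference 2.30, SE 1.47, adjusted p = 0.37), Cfd (1.73, SE 1.14, adjusted p = 0.38) and Car3 (1.15, SE 0.89, adjusted p = 0.45). Fitted means of Cfd were 3.33-fold and of Car3 2.22-fold higher in TAC hearts. With 1 library left out, the log2 difference ran from 1.72 to 3.67 for Cidec, 1.20 to 2.29 for Cfd and 0.37 to 1.96 for Car3. The lowest Cfd and Car3 values were those without TAC replicate 1, and the highest Car3 value was that without control replicate 2. Without TAC replicate 3 the differences were 2.82 for Cidec, 2.29 for Cfd and 1.64 for Car3, all 7 tested markers had higher fitted values in TAC, and their median was 1.03. Without TAC replicate 2 only 4 of 7 were higher, with a median of 0.03. No marker had CPM ranges that separated the 3 TAC from the 3 control hearts, while 28.1% of all tested genes had. TAC replicate 3 fell within or below the control range for each tested marker, and TAC replicate 1 also fell within it for Plin4, Cidea, Adipoq and Plin1.

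Adipoq (log2 difference 0.58, SE 1.33, adjusted p = 0.81) and Plin1 (-0.21, SE 1.83, adjusted p = 0.95) were not resolved in TAC against control at this depth. Plin4 was near 0 (0.10, SE 0.38, 95% interval -0.74 to 0.95) and so was Cidea (-0.12, SE 0.44, 95% interval -1.11 to 0.87), each with an adjusted p of 0.88. These intervals reach well to either side of 0, so they do not show that the levels were alike. Without TAC replicate 3 the Cidea difference was 0.29, without TAC replicate 2 that of Plin4 was -0.45 and without control replicate 1 it was -0.02. The sign of Plin1 turned without control replicate 2 (0.77) or TAC replicate 3 (0.37), and Adipoq fitted at -0.0061 without control replicate 1.

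Cidec, Car3 and Cfd changed call with the tool in TAC against control. With limma-voom and sample quality weights they were 10.3-fold (adjusted p = 0.034), 5.05-fold (adjusted p = 0.017) and 4.50-fold (adjusted p = 0.045) higher in TAC hearts. That method called 38.0% of all genes, so 3 of 7 markers is near its background. It weighted TAC replicates 1, 2 and 3 by 2.48, 0.204 and 0.156, so that its TAC values rested mainly on replicate 1, in which Cidec and Car3 were at their highest of all 9 hearts. DESeq2 called 8.55% of genes and no marker.

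KO-TAC was also set against control, which joins both interventions in 1 difference. No marker passed edgeR's test, as for 0% of genes, with 1098 genes and no marker at an unadjusted p under 0.05. The CPM ranges did not overlap for 2 of the 7 tested markers, Plin4 and Cidea, beside 26.5% of all tested genes, a share close to the markers' own. Every KO-TAC heart lay below every control heart for Plin4, though replicate 3 of KO-TAC (198.2 CPM) and replicate 1 of control (199.5 CPM) were nearly level, and the fitted group difference was 1.46-fold lower (log2 difference -0.55, SE 0.38, 95% interval -1.39 to 0.30, adjusted p = 0.86). For Cidea every KO-TAC heart lay above every control heart, with 18.4 CPM in KO-TAC replicate 1 and 17.2 CPM in control replicate 3 as the nearest, and the fitted group difference was 1.32-fold higher (log2 difference 0.40, SE 0.44, 95% interval -0.59 to 1.39, adjusted p = 0.90). With 3 hearts on each side, the smallest p of an exact permutation test is 0.1.

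The other markers overlapped between KO-TAC and control hearts. Adipoq had a log2 difference of -2.02 (SE 1.44), Plin1 of -0.78 (SE 1.83), Cfd of 1.32 (SE 1.12), Car3 of 0.52 (SE 0.88) and Cidec of 0.46 (SE 1.44), with adjusted p from 0.86 to 0.96. The values for Cfd and Car3 rested on KO-TAC replicate 1, without which they were -0.18 and -0.22. Cidec was at -0.32 without that library and at -0.12 without control replicate 1, and Plin1 at 0.18 without control replicate 2. DESeq2 called 0.468% of genes and limma-voom with quality weights 5.20%, in each case with no marker among them. The 3 comparisons share groups: TAC stands in 2 of them, as do KO-TAC and control, so their values are not independent.

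**Figure D3:**
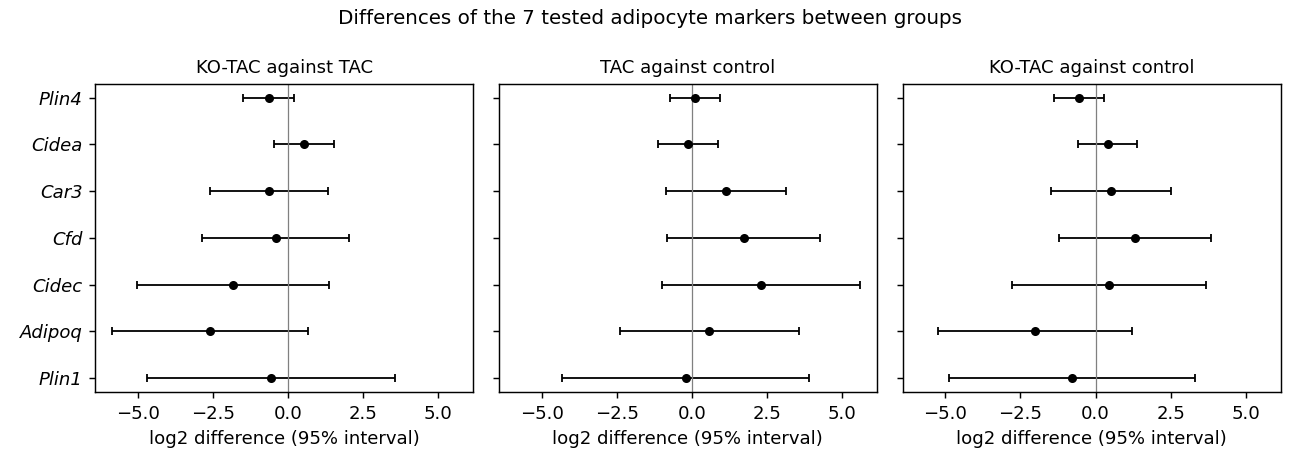
Log2 differences of the 7 tested markers with 95% intervals from edgeR, in 3 panels for KO-TAC against TAC, TAC against control and KO-TAC against control. Every interval crosses 0; those of Plin4 and Cidea are the narrowest and those of Adipoq, Plin1 and Cidec the widest.

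The trace markers differed between hearts of the same group. The 8 markers other than Plin4 and Cidea summed to 3.75, 0.843 and 0.849 CPM in KO-TAC hearts, 5.10, 3.68 and 0.370 CPM in TAC hearts, and 0.595, 2.01 and 1.06 CPM in control hearts. A count above 0 was found for 6, 3 and 3 of these 8 in KO-TAC, 6, 6 and 4 in TAC and 2, 5 and 5 in control. TAC replicates 1 and 2 and KO-TAC replicate 1 were thus high both in sum and in the number of markers found, and TAC replicate 3 had the lowest sum of all. Car3 and Cfd made up most of the sum in these high libraries. They had 2.39 and 1.45 CPM in TAC replicate 1, 1.31 and 1.20 CPM in TAC replicate 2, and 1.50 and 1.52 CPM in KO-TAC replicate 1. Plin1 was highest in control replicate 2 (0.291 CPM). KO-TAC replicate 1 was also the library with the most counts (109162107) and TAC replicate 3 the one with the fewest (59702513), and the part of depth in the number of markers found was not tested.

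Across the 9 libraries, on log2 CPM, Cfd correlated with Retn (Pearson r = 0.81, Spearman rho = 0.73), Car3 (0.77, rho 0.73), Plin1 (0.77, rho 0.68) and Cidec (0.75, rho 0.80), and Adipoq with Plin1 (0.71, rho 0.53). Plin4 and Cidea had an r of 0.30 and a rho of -0.05. These coefficients describe 9 libraries whose low counts share depth and group, and carry no test. Adipoq had high values also in control replicates 2 and 3, and only 4 counts in KO-TAC replicate 1, where Cfd was highest.

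Markers of other tissues that can come with the heart were read beside these values. The 8 genes of epicardium and mesothelium, the sheet that covers heart and pericardial fat, summed to 8.74 to 15.7 CPM in KO-TAC hearts and 27.2 to 32.6 CPM in TAC hearts, against 9.80 to 19.8 CPM in control hearts. For TAC replicate 3 the high sum did not hold for the list as a whole. Its list median, as log2 CPM relative to control hearts, lay at -0.22. That fell between control replicate 1 (-0.50) and control replicates 3 (0.07) and 2 (0.45), whereas the other TAC libraries reached 1.24 and 1.26. All 8 genes had lower fitted values in KO-TAC than in TAC, with a median log2 difference of -1.25, beside 0.01 over all genes. The median was -0.80 without TAC replicate 2 and -1.50 without TAC replicate 3. Lower in KO-TAC were also 9 of 10 endothelial (median -0.50), 7 of 8 fibroblast (-0.50) and all 5 red cell genes (-0.86). All 10 cardiomyocyte genes were higher (0.37). Without TAC replicate 3 these medians were -0.21, -0.18, -0.07 and -0.08, in that order. None of the 8 genes of epicardium and mesothelium passed the test, and only Lrrn4 was at 0 anywhere, in TAC replicate 3. Adipoq followed the median of this list over the 9 libraries (r = 0.90, rho = 0.94, and r = 0.81 without the 2 libraries farthest from the median). This was the highest r of Adipoq with any of the 19 lists and is named for that reason. It rests on 0 to 19 Adipoq counts per library, pools the 3 groups and carries no test. With the members, Adipoq among them, r was 0.66, and with the other adipocyte markers 0.19. The part of epicardium and mesothelium in the Adipoq values was not tested. Of 5 lung genes, Sftpa1 and Scgb1a1 were at 0 in all libraries and the sum was 0.167 to 0.788 CPM in KO-TAC, 0.562 to 0.706 CPM in TAC and 0.215 to 0.368 CPM in control hearts. The thymus genes Rag1 and Dntt were at 0 in all 9.

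Cidea was lowest in the library with the lowest heart muscle signal. The sum of the 10 cardiomyocyte genes was 45336 to 76575 CPM in KO-TAC hearts and 13459 to 89218 CPM in TAC hearts, against 80528 to 82155 CPM in control hearts, with every gene found in each library. Over the 9 libraries Cidea had an r of 0.92 with the median of this list, the highest of its r with the 19 lists. The rho was only 0.27, and r was 0.24 without TAC replicate 3, in which Cidea and the list median were lowest. The relation thus rested on that library, and its part in the Cidea values was not tested.

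**Figure D4:**
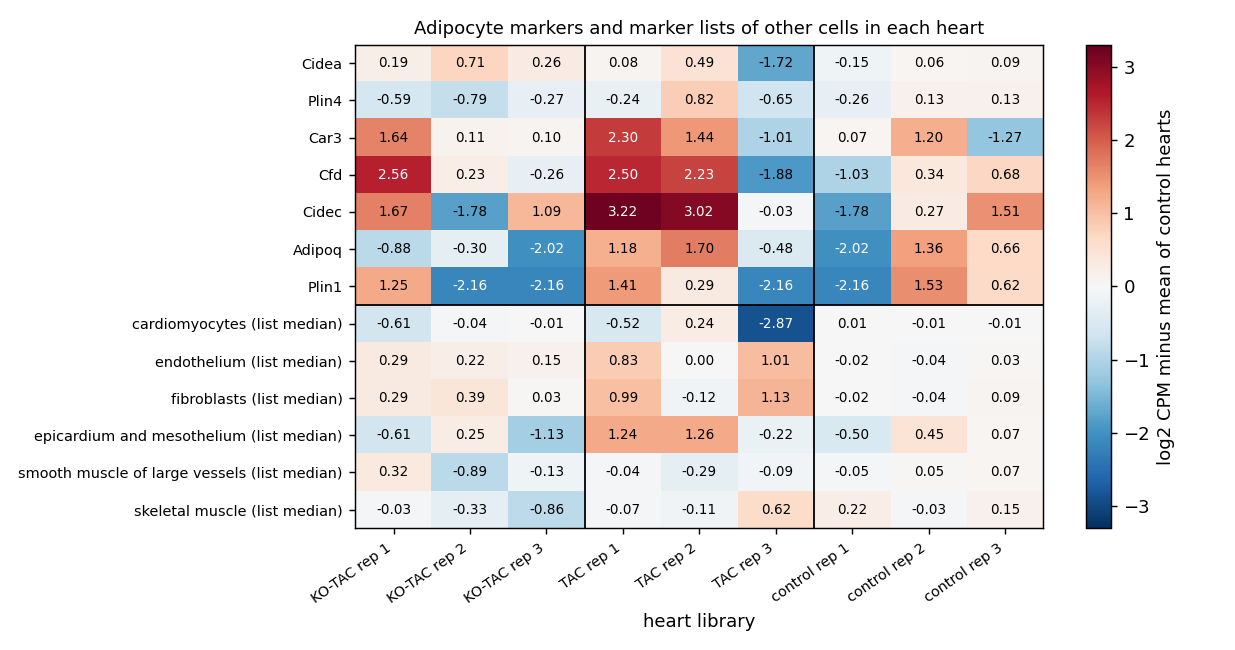
Log2 CPM minus the mean of the control hearts in each of the 9 libraries (columns, KO-TAC, TAC, control), for the 7 tested markers and for the medians of 6 gene lists (rows); red is higher and blue lower than control. The trace markers are red in TAC replicates 1 and 2, and the epicardium row is highest in these libraries. TAC replicate 3 is deep blue for cardiomyocyte genes and for Plin1, Cfd and Cidea.

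The genes most like Adipoq over the 9 libraries were sought among 13731 other genes with a mean of at least 1 CPM, by Pearson's r of log2 CPM. The 10 nearest were C2 (0.93), Acta2 (0.87), Gm50388, Rad1, Fut2 and Gm30735 (each 0.84), Pcdhb20, Kdm6b and Trim7 (each 0.83) and Rbm8a (0.81). None of these 10 was in the adipocyte or brown fat lists. Those lists hold only 20 and 16 genes, so most sets of 10 genes from this pool would hold none of them. The r values are the highest of 13731 over 9 libraries with 0 to 19 counts of Adipoq, and carry no test. For Plin4 the nearest, sought after its values were seen, were Zfp574 (0.98), Glt28d2 (0.95) and Tsc22d1 (0.94). For Cidea they were Mrpl58, Tmem147 and Mrpl34 at 0.99 or above, where Mrpl58 and Mrpl34 encode proteins of the mitochondrial ribosome.

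Other genes of fat cells were read as lists beside the members. Of 20 further adipocyte markers, 18 were tested and none passed in any comparison, but without TAC replicate 2 there were 9 that passed in TAC against control, where 27.5% of all genes did. In KO-TAC against TAC 11 were higher and 7 lower (median log2 difference 0.20), in TAC against control 7 and 11 (-0.36), and in KO-TAC against control 8 and 10 (-0.20). Without TAC replicate 2 the median in KO-TAC against TAC was 0.45, and without TAC replicate 3 it was 0.0019. The most abundant were Lpl, with 4432 ± 449 CPM in KO-TAC, 3014 ± 2477 CPM in TAC and 5925 ± 134 CPM in control, Cd36, a fatty acid transporter, with 998 ± 400.0 CPM, 825 ± 443 CPM and 1493 ± 59.5 CPM in the same groups, and Fabp4. Fabp4 had 459.7 ± 133 CPM in KO-TAC, 937 ± 499 CPM in TAC and 410.5 ± 47.8 CPM in control hearts (SD, n = 3 each). Each of the 3 TAC hearts exceeded each control heart for Fabp4 (log2 difference 1.19, SE 0.42, adjusted p = 0.17). CPM ranges of TAC and control hearts did not overlap for 28.1% of all tested genes. Endothelial genes also had higher fitted values in TAC than in control hearts, 9 of 10 with a median log2 difference of 0.66. The median was 0.46 without TAC replicate 3 and 0.86 without TAC replicate 2. The part of endothelial genes in the Fabp4 values was not tested.

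Of 16 brown fat genes, Ucp1, Otop1 and Lhx8 were at 0 in all libraries, and 10, Cidea included, were tested, none of them called. Their medians were 0.25 in KO-TAC against TAC, -0.24 in TAC against control and -0.09 in KO-TAC against control. Without TAC replicate 3 the first of these was 0.04 and the second 0.05. Without TAC replicate 2 they were 0.61 and -0.49, and 4 of the 10 passed in TAC against control, beside 27.5% of all genes. The abundant ones were Cox8b with 264 ± 22.3 CPM in KO-TAC, 227 ± 131 CPM in TAC and 255 ± 14.6 CPM in control, and Cox7a1 with 295 ± 42.0 CPM, 240.0 ± 166 CPM and 343 ± 2.91 CPM. Both encode respiratory chain subunits of muscle as well as of brown fat. Kcnk3, a potassium channel, had 173 ± 88.7 CPM, 101 ± 95.8 CPM and 241 ± 5.69 CPM in KO-TAC, TAC and control hearts.

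The machinery of the lipid droplet was present around Plin4. All 17 genes of droplet coat and lipolysis were tested, 4 of them members, and none was called. In KO-TAC against TAC 9 were higher and 8 lower (median log2 difference 0.07), in TAC against control 5 and 12 (-0.27), and in KO-TAC against control 6 and 11 (-0.21). Without TAC replicate 3 the median in TAC against control was -0.09 with none called. Without TAC replicate 2 it was -0.55, with 6 of 17 called, none of them one of the 4 members, beside 27.5% of all genes. The median in KO-TAC against TAC was then 0.29. Pnpla2, the lipase that opens triglyceride breakdown, had 199 ± 55.8 CPM in KO-TAC, 185 ± 149 CPM in TAC and 301 ± 55.1 CPM in control, and Mgll, the lipase of its last step, had 133 ± 19.6 CPM, 200.5 ± 39.0 CPM and 150.4 ± 3.05 CPM. All 15 genes of fatty acid and triglyceride synthesis were tested and none was called, with medians of 0.09, -0.36 and -0.27 in KO-TAC against TAC, TAC against control and KO-TAC against control. Of the 15, 8 passed in TAC against control without TAC replicate 2, where 27.5% of all genes passed. Dgat2, Gpam and Agpat3, enzymes that build glycerolipids and the most abundant of that list, had means of 237, 177 and 117 CPM in KO-TAC, 175, 116 and 75.2 CPM in TAC, and 323, 327 and 179 CPM in control hearts.

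The receptors for adiponectin and leptin were counted in every group, while the hormone genes were at trace or at 0. All 5 genes of the list were tested and none was called. All 5 had lower fitted values in TAC than in control (median log2 difference -0.49) and in KO-TAC than in control (-0.19), and 4 of 5 had higher values in KO-TAC than in TAC (0.25). Without TAC replicate 3 the medians in TAC against control and KO-TAC against TAC were -0.30 and 0.07. They were -0.82 and 0.63 without TAC replicate 2, and 3 of 5 then passed in TAC against control, beside 27.5% of all genes. Cdh13, which encodes the adiponectin-binding T-cadherin, had 133 ± 33.5 CPM in KO-TAC, 109 ± 42.5 CPM in TAC and 153 ± 6.30 CPM in control. The receptor genes Adipor1 and Adipor2 had 119 ± 19.3 and 70.7 ± 16.7 CPM in KO-TAC, 99.8 ± 39.6 and 54.8 ± 17.8 CPM in TAC, and 136 ± 4.50 and 80.4 ± 6.34 CPM in control.

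Cfd acts in the alternative complement pathway, of which 8 of 9 other listed genes were tested and none was called. In KO-TAC against TAC 2 were higher and 6 lower (median log2 difference -0.56), in TAC against control 6 and 2 (0.66), and in KO-TAC against control 6 and 2 (0.15). Without TAC replicate 3 the medians in KO-TAC against TAC and TAC against control were -0.19 and 0.29. Without TAC replicate 2 there were 4 of 9 that passed in TAC against control, beside 27.5% of all genes. C3, the central substrate of the pathway, had 95.5 ± 37.2 CPM in KO-TAC, 151 ± 56.8 CPM in TAC and 151 ± 37.1 CPM in control, and Cd59a, an inhibitor of the membrane attack complex, had 65.1 ± 10.1 CPM, 53.0 ± 21.6 CPM and 70.9 ± 9.62 CPM. Cfd itself was at 0.046 to 1.52 CPM in the 9 hearts.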

How the data were processed

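The authors deposited raw counts per gene symbol, with no normalization visible in the values; per the labels, total RNA was extracted with Trizol and sequenced from directional NEBNext libraries. Builds GRCm38 and mm10 are named in the submitters' processing notes, beside HISAT2 2.2.1, StringTie 2.2.1, DESeq2 1.42.0, Trim Galore 0.6.10 and SAMtools 1.15. The counting tool, annotation and strand setting were not given in the sources used here. All 9 columns were mapped to groups by the labels, 3 per group. Of 55401 rows, 110 repeat a symbol, none of them a member.

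The test was edgeR 4.0.16 in R 4.3.3 (glmQLFit and glmQLFTest, two-sided, TMM, filterByExpr with a minimum count of 10), with 19051 genes kept and all 9 libraries in 1 fit by group. Log2 CPM used a prior count of 2, and intervals are at 95%. DESeq2 1.42.0 and limma 3.58.1 were alternatives. Refitting the gene lists without TAC replicate 2 or 3 was chosen after seeing the data. Scripts were checked on simulated data. The members and lists were chosen with earlier results of these data known. All 10 members are named, and of each other list the up to 3 genes with the highest CPM, since none was called; 1 such gene is not reported here. Counts of any 2 libraries of a group differed by more than sampling noise (chi-square at least 21.8 times its degrees of freedom). Samples with the same replicate number in their titles did not deviate together. Correlations were -0.43 to 0.19 over 9 pairs, against -0.61 to 0.52 over 18 other pairs, so these numbers were not taken as pairs. The sample descriptions number the TAC libraries 2 to 4. By those numbers TAC replicate 2 pairs with KO-TAC replicate 3 (correlation 0.52) and control replicate 3 (-0.01). TAC replicate 1 then pairs with KO-TAC replicate 2 (0.01) and control replicate 2 (0.02). A block by those numbers was not fitted. Intervals and limits for counts of 0 cover counting error only.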

Additional observations from a re-analysis of the deposited data

How the results depend on the processing

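No marker passed under any alternative except limma-voom with quality weights, which called 3 in TAC against control. Of 345 alternative values of marker differences, 324 kept their direction and side of the threshold, 3 newly passed and 18 turned sign; the cause was not tested. Counts of genes called for KO-TAC against TAC, TAC against control and KO-TAC against control were 0, 0 and 0 by edgeR, 195, 1626 and 89 by DESeq2, and 996, 7230 and 991 by limma-voom. In KO-TAC against control they were 30 with only the 2 groups fitted, 2 with no filter and 2 with counts divided by 4, an alternative chosen after seeing the data in which 4 markers could be tested. Leaving out 1 library gave 0 to 13, 0 to 5477 (5477 without TAC replicate 2) and 0 to 4 genes. Limma-voom turned the log2 difference of Plin1 to 1.44 and of Plin4 to -0.21 in TAC against control, and of Cidec to -1.23 in KO-TAC against control.

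With 1 library left out, log2 differences in KO-TAC against TAC ran from -6.25 to 0.63 for Plin1, -1.91 to 0.11 for Cfd and -1.37 to 0.15 for Car3. In TAC against control they ran from -0.0061 to 1.42 for Adipoq, -1.43 to 0.77 for Plin1, -0.45 to 0.37 for Plin4 and -0.56 to 0.29 for Cidea. In KO-TAC against control they ran from -6.45 to 0.18 for Plin1, -0.32 to 1.82 for Cidec, -0.18 to 1.75 for Cfd and -0.22 to 1.32 for Car3. With the replicate number of the titles as a block, 0 genes and 0 markers were called in each comparison. Depth limits the trace markers: 4 counts were 0.0294 to 0.0624 CPM.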

Other observations

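Outside the markers, and chosen after their values were seen, Dio2 of the brown fat list and Cideb of the droplet list are given as values. Dio2, which activates thyroid hormone, had 15.4, 20.5 and 3.51 CPM in KO-TAC hearts, 26.4, 0.64 and 51.1 CPM in TAC hearts, and 1.36, 0.60 and 0.48 CPM in control hearts. By edgeR its log2 difference was 5.00 (SE 1.29, adjusted p = 0.14) in TAC against control and 4.01 (SE 1.24, adjusted p = 0.84) in KO-TAC against control, where all 3 KO-TAC hearts lay above all controls. CPM ranges of KO-TAC and control hearts did not overlap for 26.5% of all tested genes. Cideb, a droplet protein best known from liver, had 0.88, 1.83 and 1.16 CPM in KO-TAC hearts, 0.29, 0.34 and 0.13 CPM in TAC hearts, and 0.69, 1.01 and 0.68 CPM in control hearts. Its log2 difference was 2.34 (SE 0.51, adjusted p = 0.34) in KO-TAC against TAC and -1.64 (SE 0.50, adjusted p = 0.15) in TAC against control, with no overlap between the 3 and 3 hearts in either. Of all tested genes, 9.96% and 28.1% had ranges that did not overlap in these comparisons. None of these passed the adjusted threshold.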
